A study of Mus musculus and Homo sapiens with 8 samples.

Results

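In KU812 cells, 35 of the 20296 listed genes were near silent with a control hairpin and were read at a clear level after ANP32B was knocked down. Near silent means below 1 CPM (a gene's count per 1000000 counts of its library) in both control libraries, and the level after knockdown was at least 2 CPM in both libraries. These limits were met by 46 genes, and 11 were set aside by symbol, namely 9 with LOC symbols, 1 with a LINC symbol and S100A9, which leaves the 35 described here. The same 4 KU812 libraries chose the genes, so their KU812 levels are a description and carry no test.

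KU812 is an established human chronic myelogenous leukemia line with basophil features, derived from peripheral blood. It carried a short hairpin RNA against ANP32B (shANP32B, n = 2) or a control hairpin (shNC, n = 2). The second experiment used mouse LSK cells from the bone marrow of C57BL/6 animals that were knocked out for Anp32b (Anp32b-KO, n = 2) or wild type (WT, n = 2), a gate (lineage negative, Sca-1 and c-Kit positive) that holds stem cells and multipotent progenitors. The labels name no second hairpin against ANP32B, so effects of this hairpin on other transcripts cannot be told apart from those of losing ANP32B. They do not give the age of the animals or the cells in which Anp32b was deleted, nor do they say that replicates are separate animals or cultures, so a p-value here rests on library-to-library spread that may be only technical.

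RNA was sequenced to 24416691 to 28209409 counts per KU812 library and 10549358 to 15683480 per LSK library, so 1 CPM stood for 24.4 to 28.2 counts in KU812 cells and 10.5 to 15.7 in LSK cells. The hairpin's target was read at 41.2 and 38.7 CPM in shANP32B and at 248 and 277 CPM in shNC (log2 fold change -2.77, SE 0.12, adjusted p = 5.18e-08, edgeR quasi-likelihood test). Anp32b itself stood at 204 and 253 CPM in Anp32b-KO and at 772 and 726 CPM in WT (log2 fold change -1.76, SE 0.17, adjusted p = 0.148 by the same test). The basophil and progenitor factor GATA2, the stem cell factor receptor KIT and the leukocyte antigen PTPRC were read at 281 CPM or more in every KU812 library. CD34 was low there, at 3.79 and 2.33 CPM in shANP32B, against 11.8 and 9.15 CPM in shNC (log2 fold change -1.83, SE 0.29). In every LSK library Kit, Cd34 and Flt3 were read at 326 CPM or more. Ly6a, the gene for Sca-1, was lower, at 38.4 and 44.1 CPM in Anp32b-KO and 58.6 and 45.2 CPM in WT. Replicate 1 of WT stood apart, with immunoglobulin genes at 1.44% of its counts, against 0.319% in the other WT library and 0.528% and 0.652% in Anp32b-KO.

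ANP32B is an acidic nuclear phosphoprotein that binds histones and acts as a histone chaperone, a class of proteins that deposits histones on DNA or removes them. Many genes that serve a specialised tissue, such as receptors of neurons or hormones of a gland, are kept silent in blood cells by their chromatin. A transcript count at such levels says nothing of whether a protein is made.

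By what their proteins are known to do, 10 of the 35 are surface receptors, channels or their modulators, 6 are secreted or matrix proteins, 7 are enzymes or other cytoplasmic or organelle proteins, and 6 bind RNA or act in the nucleus. Another 4 are coding genes with little described function, and 2 are pseudogenes by symbol. By usual tissue, 8 are best known from the nervous system or eye, 3 from blood cells, 2 from endocrine glands and 2 from the germ line. The other 20 belong to other tissues or to several. These groups were written after the genes were known. The other listed genes were not grouped in this way, so these counts have no background share beside them. The tissue lists hold 8 of the 35 in all and the testis and germ line list holds 0, while 18 are in no list or symbol class. Libraries of the shANP32B group stood at 52 to 357 counts (replicate 1, median 70) and 49 to 231 counts (replicate 2, median 66) for these genes. Libraries of shNC stood at 1 to 27 counts (replicate 1, median 15) and 2 to 25 counts (replicate 2, median 15). Every gene was read at least once in every library, so no fold is taken against 0.

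The ratio of mean CPM, shANP32B over shNC, ran from 2.66 to 37.8 with a median of 5.08, and was at least 10 in 5 genes. Most were modest in level, with 21 of the 35 at a mean of 2 to 3 CPM in shANP32B and 3 at 5 CPM or more in both of its libraries. Neither replicate dominated. In shANP32B, 20 of the 35 were higher in replicate 1, and in shNC 18 were. The shANP32B replicates differed by over 1.5 times in 4 genes, while the shNC replicates, at far fewer counts, did so in 17. In the fit across all genes 34 of the 35 were past the threshold, where 7.53% of the 16529 genes tested were called higher, a count that the choice of genes fixes.

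**Figure D1:**
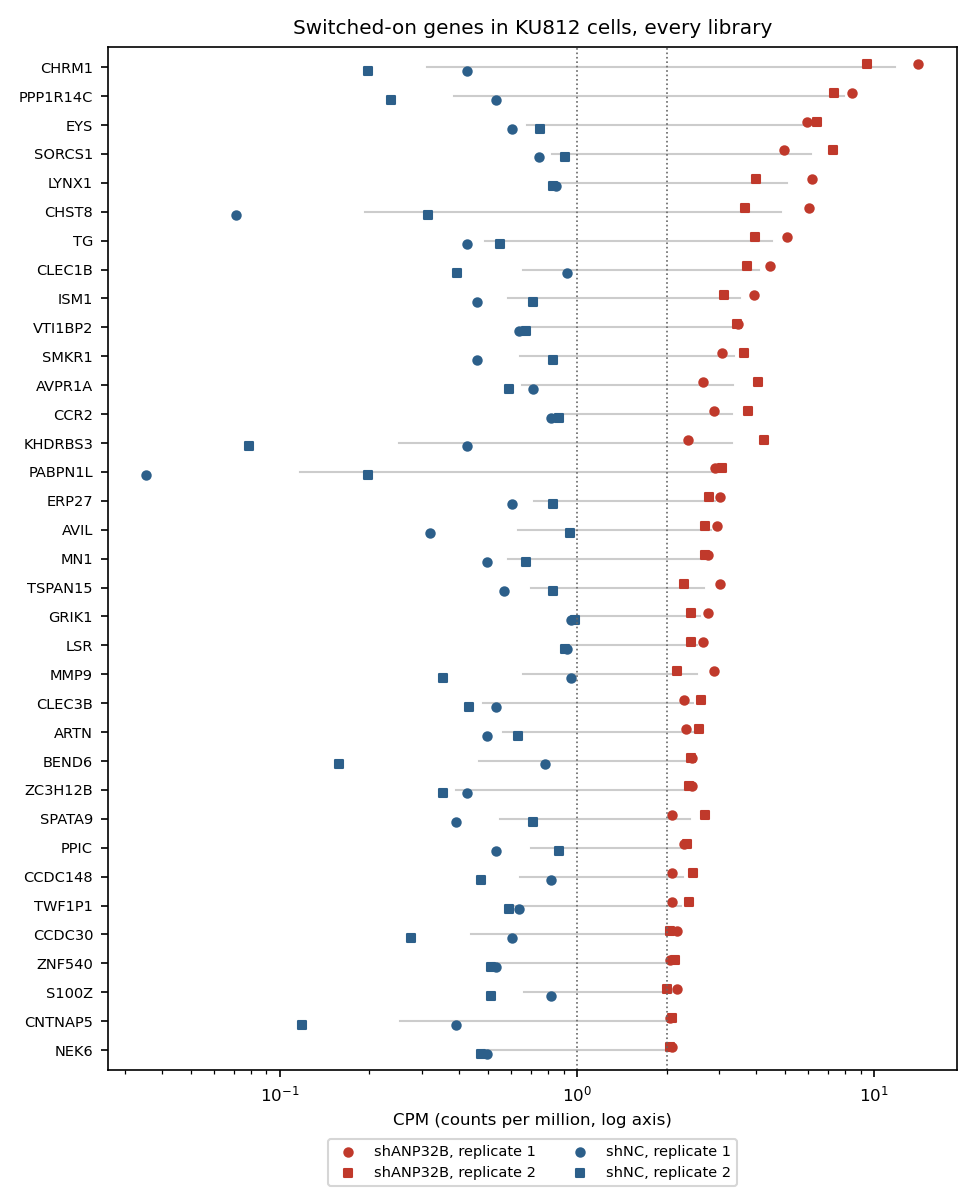
CPM of the 35 genes in each KU812 library (log axis; circles for replicate 1, squares for replicate 2; grey lines join the group means; dotted lines mark 1 and 2 CPM). The red shANP32B points lie right of 2 CPM and the blue shNC points left of 1 CPM by the choice of genes, and CHRM1 reaches 14.1 CPM.

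The gene with the largest ratio was CHRM1, the muscarinic acetylcholine receptor M1, a receptor of brain neurons that couples to Gq. It had 357 and 231 counts in shANP32B (14.1 and 9.46 CPM), against 12 and 5 counts in shNC (0.425 and 0.197 CPM), a 37.8-fold higher mean with a log2 fold change of 5.15 (SE 0.40). Both shANP32B libraries were far above both shNC libraries, and replicate 1 was the higher library in each group. CHRM4 was the other muscarinic receptor gene listed, and stood at or below 0.197 CPM in all 4 libraries.

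Besides CHRM1, the receptors of this group with a G protein partner were AVPR1A and CCR2. AVPR1A, the vasopressin V1a receptor of liver, vessels and brain, was read at 2.64 and 4.05 CPM in shANP32B, against 0.709 and 0.592 CPM in shNC (log2 fold change 2.30, SE 0.46). CCR2, the receptor for the monocyte attractant CCL2, stood at 2.88 and 3.77 CPM in shANP32B, against 0.815 and 0.868 CPM in shNC (log2 fold change 1.92, SE 0.43). In both genes replicate 2 of shANP32B was the higher, unlike in CHRM1. Of the 212 genes listed for KU812 cells whose symbol marks a G protein-coupled receptor, 152 were tested. Among the 149 of these outside the 35 genes, 19 rose and 16 fell, beside 7.53% of all tested genes called higher and 9.06% called lower.

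Several genes of synapses and neuronal surfaces were among the 35. SORCS1, a Vps10-domain receptor that sorts membrane proteins in neurons, was read at 4.97 and 7.25 CPM in shANP32B and at 0.744 and 0.907 CPM in shNC (log2 fold change 2.83, SE 0.38). LYNX1, an anchored Ly6 protein that dampens nicotinic acetylcholine receptors, stood at 6.19 and 4.01 CPM in shANP32B, against 0.851 and 0.828 CPM in shNC (log2 fold change 2.54, SE 0.40). GRIK1 encodes the kainate receptor subunit GluK1 and was the member nearest the shNC limit. It had 2.76 and 2.42 CPM in shANP32B and 0.957 and 0.986 CPM in shNC, the smallest log2 fold change of the 35, 1.35 (SE 0.44). CNTNAP5, a contactin-associated protein of the neurexin superfamily, had 52 and 51 counts in shANP32B, against 11 and 3 in shNC (log2 fold change 2.93, SE 0.64). The list of neuron and synapse genes held 3 of the 35 (CHRM1, SORCS1 and GRIK1) among its 37 listed genes. Of the 26 other list genes tested 3 rose and 1 fell, beside 7.53% of all tested genes called higher and 9.06% called lower.

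Another 3 surface proteins have their best-known roles outside the brain. CLEC1B, the platelet receptor CLEC-2 that binds podoplanin, stood at 4.46 and 3.73 CPM in shANP32B, against 0.922 and 0.394 CPM in shNC (log2 fold change 2.56, SE 0.47). It was the only 1 of the 35 on the megakaryocyte and platelet list. Of the 24 other tested genes on that list 8 rose and 2 fell, beside 7.53% higher and 9.06% lower among all tested genes. LSR, a lipoprotein receptor that also marks tricellular junctions of epithelia, stood at 2.64 and 2.42 CPM in shANP32B and at 0.922 and 0.907 CPM in shNC. TSPAN15, a tetraspanin partner of the protease ADAM10, was read at 3.04 and 2.29 CPM in shANP32B, against 0.567 and 0.828 CPM in shNC. Their log2 fold changes were 1.41 (SE 0.45) for LSR and 1.87 (SE 0.48) for TSPAN15.

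The secreted and matrix group held EYS, an extracellular protein of photoreceptors. EYS had 150 and 157 counts in shANP32B (5.92 and 6.43 CPM), against 17 and 19 counts in shNC (0.603 and 0.749 CPM), with a log2 fold change of 3.13 (SE 0.37). Replicates of each group lay close together, and the SE was the smallest of the 35. EYS was the only 1 of the 35 on the retina and photoreceptor list. Of the 13 other tested genes on that list 0 rose and 1 fell, beside 7.53% higher and 9.06% lower among all tested genes. TG encodes thyroglobulin, the precursor of thyroid hormone. It was read at 5.09 and 3.97 CPM in shANP32B, against 0.425 and 0.552 CPM in shNC (log2 fold change 3.15, SE 0.44). ISM1, the secreted protein isthmin 1, stood at 3.94 and 3.11 CPM in shANP32B and at 0.461 and 0.710 CPM in shNC.

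Of the other secreted proteins, MMP9 is the gelatinase stored in neutrophil granules and was the least even in the controls. It had 73 and 53 counts in shANP32B, against 27 and 9 counts in shNC (log2 fold change 1.87, SE 0.53). CLEC3B, the plasma protein tetranectin, was read at 2.29 and 2.62 CPM in shANP32B, against 0.532 and 0.434 CPM in shNC. ARTN, the GDNF family ligand artemin, stood at 2.33 and 2.58 CPM in shANP32B and at 0.496 and 0.631 CPM in shNC. RET, which encodes the signalling receptor for this ligand family, was read at 0 counts in both shANP32B libraries and at 0.354 and 0 CPM in shNC, where 3 counts stood for 0.106 to 0.123 CPM in these 4 libraries.

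Among enzymes and other proteins inside the cell, CHST8 and PPP1R14C had the largest ratios. CHST8, a sulfotransferase that modifies the sugars of pituitary hormones, had 153 and 90 counts in shANP32B, against 2 and 8 counts in shNC (log2 fold change 4.60, SE 0.59). PPP1R14C, an inhibitor of protein phosphatase 1 that protein kinase C switches on, had 214 and 179 counts in shANP32B, against 15 and 6 counts in shNC (log2 fold change 4.27, SE 0.41). The mean of each was over 20 times higher in shANP32B, at 25.2-fold for CHST8 and 20.5-fold for PPP1R14C. The list of thyroid, pituitary, pancreas and adrenal genes held TG and CHST8 among its 7 listed genes. Of its 3 other tested genes 0 rose and 2 fell, beside 7.53% higher and 9.06% lower among all tested genes.

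The remaining genes of this group lay near the lower limit. ERP27, a redox-inactive relative of protein disulfide isomerase known from the pancreas, was read at 3.04 and 2.79 CPM in shANP32B, against 0.603 and 0.828 CPM in shNC. AVIL, the actin-binding protein advillin of sensory neurons, stood at 2.96 and 2.70 CPM in shANP32B, against 0.319 and 0.947 CPM in shNC. The cyclophilin PPIC had a mean of 2.31 CPM in shANP32B and 0.700 CPM in shNC. The mitotic kinase NEK6 averaged 2.07 CPM in shANP32B and 0.485 CPM in shNC, and the calcium-binding protein S100Z 2.09 CPM in shANP32B and 0.664 CPM in shNC. NEK6 and S100Z were among the 3 genes that passed the 2 CPM limit most narrowly, with lower shANP32B libraries of 2.05 and 2.01 CPM.

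Of the genes that act on RNA or in the nucleus, PABPN1L and KHDRBS3 had the fewest control counts. PABPN1L, an embryonic poly(A)-binding protein of oocytes, had 74 and 75 counts in shANP32B, against 1 and 5 counts in shNC (log2 fold change 4.61, SE 0.67). KHDRBS3, a splicing regulator of brain and testis, had 60 and 104 counts in shANP32B, against 12 and 2 counts in shNC (log2 fold change 3.61, SE 0.64). The 2 shANP32B libraries agreed closely for PABPN1L and differed by over 1.5 times for KHDRBS3. MN1, a transcriptional cofactor whose rearrangement or high level is known from myeloid leukemia, was read at 2.76 and 2.70 CPM in shANP32B, against 0.496 and 0.670 CPM in shNC (log2 fold change 2.17, SE 0.48). ZC3H12B, of the regnase group of RNA-degrading zinc finger proteins, stood at 2.44 and 2.38 CPM in shANP32B and at 0.425 and 0.355 CPM in shNC. BEND6 had a mean of 2.43 CPM in shANP32B and 0.469 CPM in shNC, and the zinc finger gene ZNF540 2.09 CPM in shANP32B and 0.522 CPM in shNC. ZNF540 was the 1 of the 35 (2.86%) whose symbol marks a transcription factor, beside 975 of all listed genes (4.80%).

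The little-described coding genes were SMKR1, SPATA9, CCDC148 and CCDC30, of which SPATA9 takes its name from testis. SMKR1 was read at 3.08 and 3.65 CPM in shANP32B, against 0.461 and 0.828 CPM in shNC, and the other 3 had shANP32B means of 2.11 to 2.40 CPM. Both pseudogenes copy genes that are expressed in KU812 cells, so their reads are uncertain. VTI1BP2 stood at 3.47 and 3.44 CPM in shANP32B, against 0.638 and 0.670 CPM in shNC. VTI1B, the gene it copies, had 84.1 and 81.8 CPM in shANP32B and 83.6 and 89.9 CPM in shNC. For TWF1P1 the values were 2.09 and 2.38 CPM in shANP32B and 0.638 and 0.592 CPM in shNC. TWF1, its source gene, rose with it, at 57.5 and 62.7 CPM in shANP32B, against 27.7 and 26.6 CPM in shNC (log2 fold change 1.09, SE 0.13, adjusted p = 1.55e-04, edgeR quasi-likelihood test).

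The limits cut through a continuous range of levels. Just outside the shNC limit lay FLJ23867, the decoy receptor gene TNFRSF10C and the ribosomal pseudogene RPS20P33, each with a higher shNC library of 1.03 CPM. GRIK1, MMP9 and AVIL lay just inside it, with higher shNC libraries of 0.986, 0.957 and 0.947 CPM. Just outside the shANP32B limit lay the growth factor receptor gene PDGFRA, at 1.97 and 6.27 CPM in shANP32B, the NODAL antagonist LEFTY1, at 3.12 and 1.97 CPM, and the antisense RNA NFIA-AS2, at 2.84 and 1.97 CPM. Of the 6092 genes below 1 CPM in both shNC libraries, 46 (0.755%) stood at 2 CPM or more in both shANP32B libraries before symbols were dropped. With the groups exchanged, 25 of the 5766 genes below 1 CPM in both shANP32B libraries (0.434%) stood at 2 CPM or more in both shNC libraries, and 20 were left after the same symbols were dropped.

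To see whether relatives of these genes moved as well, 19 families were set out, chosen after the 35 genes were known, with 120 further members listed for KU812 cells. Of the 99 tested, 22 rose (22.2%) and 9 fell (9.09%), beside 7.53% and 9.06% of all tested genes. The 22 include S100A9, which met both limits and was set aside by name, so its rise was fixed by them. These percentages describe families picked by name and are no test of them. In 12 of the 18 families with a relative tested, at least 1 further gene rose. Those families held 1 to 16 tested relatives, so a large family had more chances to hold such a gene. CHST1, another sulfotransferase gene, was also near silent in the controls, at 3.04 and 1.80 CPM in shANP32B, against 0.142 and 0.0394 CPM in shNC (log2 fold change 4.58, SE 0.72, adjusted p = 8.67e-04, edgeR quasi-likelihood test). CHST11 fell, with a log2 fold change of -0.70 (SE 0.13), and the rest of the 9 tested relatives of CHST8 did not pass the threshold. The gelatinase MMP2 rose beside MMP9, at 34.8 and 45.1 CPM in shANP32B, against 9.36 and 8.91 CPM in shNC (log2 fold change 2.07, SE 0.18, adjusted p = 7.23e-06 by the same test).

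The relatives that rose had both high and low CPM in the controls. SORT1, the sorting receptor sortilin, stood at 63.8 and 78.7 CPM in shANP32B, against 36.2 and 39.0 CPM in shNC (log2 fold change 0.87, SE 0.14). The actin-severing protein gelsolin, GSN, a relative of AVIL, had a log2 fold change of 0.72 (SE 0.11). Among S100 genes, S100A8 and S100A9 rose by 2.54 and 2.31 on the log2 scale, though S100A9 met both limits itself. The shNC libraries stood at 0.922 and 1.34 CPM for S100A8 and at 0.638 and 0.749 CPM for S100A9. S100A10 and S100A1 had log2 fold changes of -1.29 and -1.84, a fall in both. None of the 7 other cyclophilin genes and none of the 3 other STAR genes passed the threshold beside PPIC and KHDRBS3. For NEK6, 1 of the 9 tested relatives rose (NEK8) and 3 fell (NEK2, NEK3 and NEK7).

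**Figure D2:**
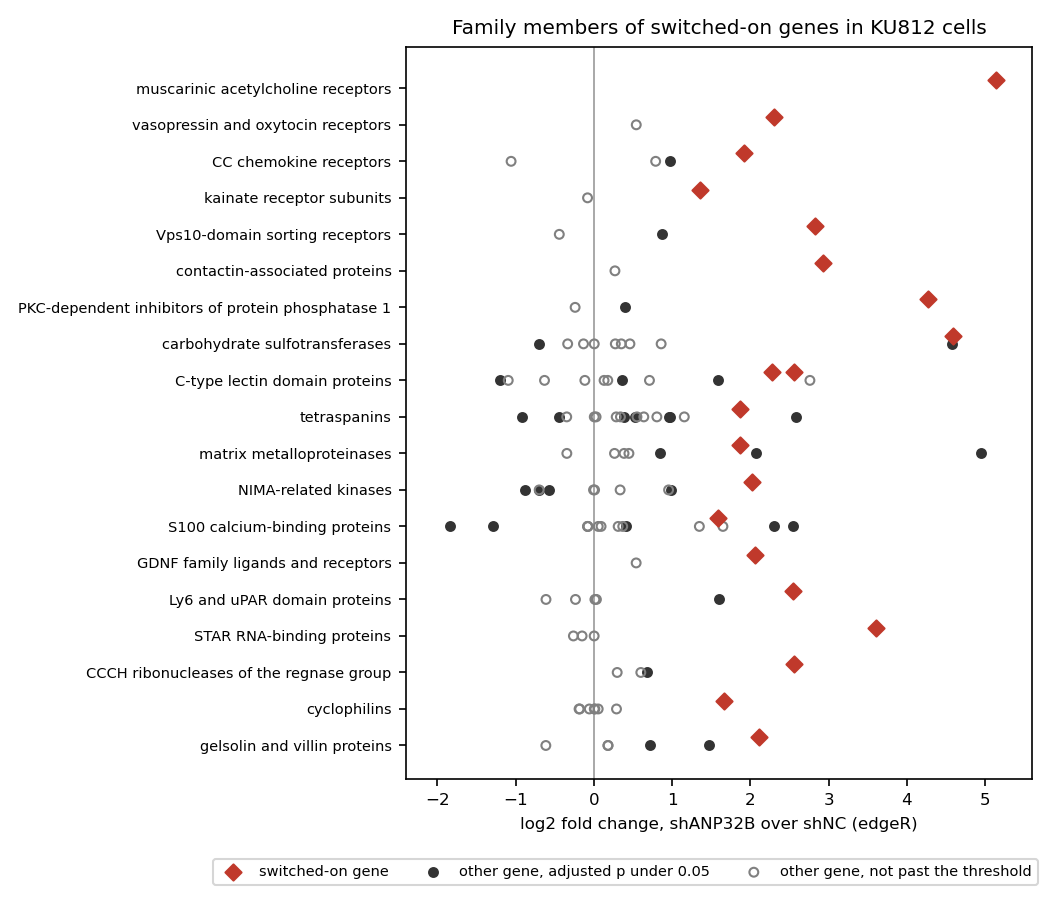
Log2 fold change (shANP32B over shNC) of the genes of 19 families that passed the filter on low counts. Red diamonds, drawn slightly above the line, are switched-on genes; filled circles are relatives with an adjusted p under 0.05 and open circles relatives past no threshold. CHST1 lies under CHST8, and the cyclophilin relatives lie near 0.

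Marker lists of some blood cells and other tissues are given as sums over all their listed genes. Beside their counts of called genes, 7.53% of all tested genes were called higher and 9.06% lower. The erythroid list summed to 9041 and 9489 CPM in shANP32B, against 12534 and 13414 CPM in shNC, with 1 of its 33 tested genes higher and 16 lower. The list of basophil, mast cell and eosinophil genes summed to 11757 and 12059 CPM in shANP32B, against 9460 and 8878 CPM in shNC, with 8 of 28 tested genes higher and 6 lower. The list of liver, kidney and gut genes summed to 145 and 128 CPM in shANP32B, against 68.2 and 65.2 CPM in shNC, with 1 of 9 tested genes higher and 1 lower. The epithelia and keratin list summed to 441 and 396 CPM in shANP32B, against 733 and 735 CPM in shNC. Of its 26 tested genes 2 rose and 8 fell. The endothelium, fibroblast and matrix list summed to 1342 and 1442 CPM in shANP32B, against 1568 and 1526 CPM in shNC. Of its 28 tested genes 7 rose and 2 fell. None of these lists holds any of the 35 genes, and the part of such shifts in the levels of the 35 was not tested. The neutrophil, monocyte and dendritic cell list held MMP9. It summed to 302 and 288 CPM in shANP32B and to 308 and 266 CPM in shNC, and 3 of its 27 other tested genes rose while 2 fell. The p53 target list held none of the 35. Of its 49 tested genes 5 rose and 5 fell, with a median log2 fold change of -0.017, beside a median of 0.0041 over all tested genes.

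In mouse LSK cells the same symbols gave an independent reading, since the rule used none of those libraries. Of the 35 symbols, 20 were listed in the LSK tables, which hold only genes with at least 10 counts over the 4 libraries. Another 9 have a mouse gene of the same symbol in the GENCODE annotation but were not listed, among them the genes for CHRM1, PPP1R14C, SORCS1, AVPR1A and GRIK1, and 6 have no mouse gene of the same symbol there. Of the 20 matched genes, 12 (60.0%) were at 1 CPM or more in both WT libraries. This share lay well under the 91.4% of all 10855 symbols shared between the species and next to the 60.5% of the 1020 shared symbols that were below 1 CPM in both shNC libraries.

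CPM is not scaled to gene length, so values are compared here within a gene. Ccr2 stood at 51.1 and 67.1 CPM in Anp32b-KO and 52.0 and 55.8 CPM in WT. Ppic stood at 30.6 and 32.2 CPM in Anp32b-KO and 32.2 and 26.1 CPM in WT, and Nek6 at 31.0 and 28.7 CPM in Anp32b-KO and 33.3 and 22.7 CPM in WT. The groups overlapped for all 3 of these genes. Mmp9 had 19.5 and 10.9 CPM in Anp32b-KO, against 17.0 and 22.7 CPM in WT. Khdrbs3 stood at 12.8 and 14.1 CPM in Anp32b-KO and at 14.8 and 10.05 CPM in WT, and the groups overlapped for both. Mn1 was read at 17.7 and 16.2 CPM in Anp32b-KO and at 13.7 and 15.9 CPM in WT, close together but without overlap (log2 fold change 0.15, SE 0.20). These 6 genes were above 10 CPM in both WT libraries. Their low level in control KU812 cells was set by the choice of genes. The experiments also differ in species and cell type, so no level is compared between them.

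At the low end, Pabpn1l, Chst8, Artn, Avil, Bend6, Tspan15 and Clec3b were below 1 CPM in both WT libraries, with 1 to 16 counts in any LSK library. Avil had 8 and 11 counts in Anp32b-KO, against 2 and 1 in WT, and Bend6 had 4 and 15 counts in Anp32b-KO, against 2 and 1 in WT. Both were higher in each Anp32b-KO library than in either WT library but did not pass the filter on low counts. Chst8 had 16 and 1 counts in Anp32b-KO and 6 and 4 in WT, so the Anp32b-KO libraries disagreed.

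**Figure D3:**
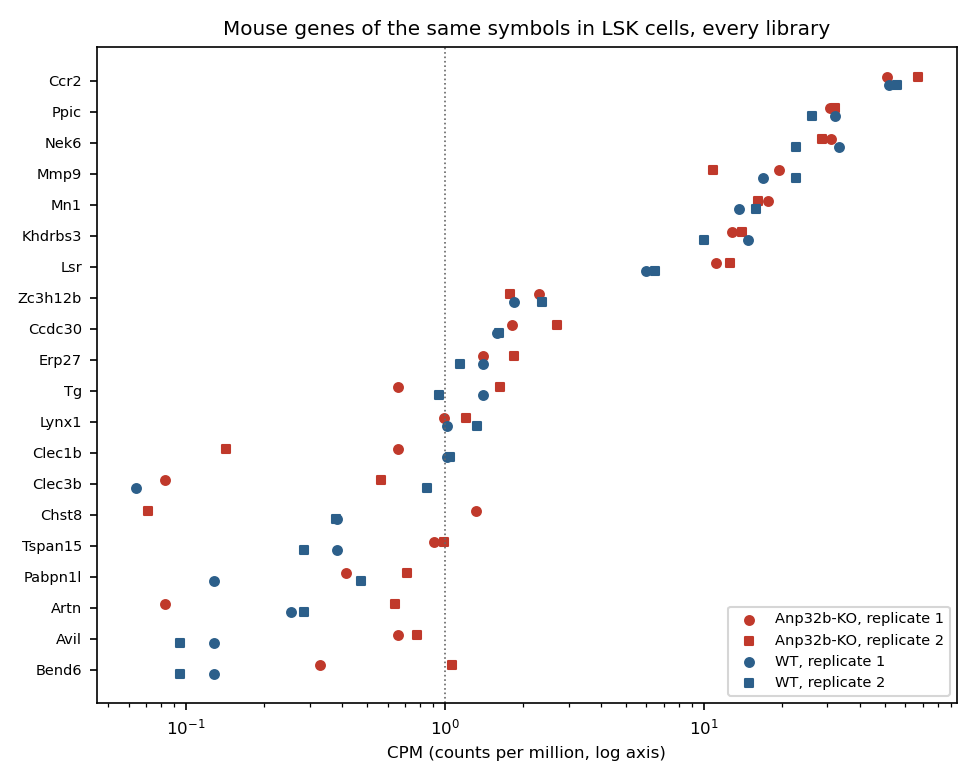
CPM of the 20 matched mouse genes in each LSK library (log axis; red, Anp32b-KO; blue, WT; circles for replicate 1 and squares for replicate 2; dotted line at 1 CPM). Groups overlap for most genes. Lsr lies apart, at 11.1 and 12.6 CPM in Anp32b-KO and 5.99 and 6.45 CPM in WT. At low counts Avil, Bend6 and Tspan15 (higher in Anp32b-KO) and Clec1b (lower) lie apart too. Mn1, Ccdc30 and Erp27 also do not overlap, with both Anp32b-KO libraries higher by a narrow gap.

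The comparison of Anp32b-KO with WT gives the same genes in libraries that differ by the labelled deletion, in which Anp32b reads remained as given above, and none of the genes passed the test. Of the 20 matched genes 14 passed the filter on low counts, and 0 of the 14 passed at an adjusted p under 0.05, as did 0 of all 14598 genes tested (0%, edgeR quasi-likelihood test). At an unadjusted p under 0.05 the counts were 1 of the 14 and 657 of the 14598. The count of matched genes at that p was 3 without Anp32b-KO replicate 1, 0 without Anp32b-KO replicate 2 and 2 with no filter on low counts. DESeq2 called 0 of the matched genes and 15 genes in all. The groups did not overlap for 6 of the 14, 5 higher and 1 lower in Anp32b-KO. Among all tested genes the share was 34% in either direction and 22.5% with both Anp32b-KO libraries higher. For Erp27, 1 of the 5, replicate 1 of Anp32b-KO and replicate 1 of WT both stood at 1.40 CPM. Tspan15 passed the filter only through its Anp32b-KO counts and Clec1b only through its WT counts, so these counts are no support for a shift of the set. Adjusted p ran from 0.986 to 0.998. A missed threshold with 2 libraries a group does not show that levels were equal.

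Lsr had the smallest unadjusted p. It had 135 and 178 counts in Anp32b-KO (11.1 and 12.6 CPM), against 94 and 68 counts in WT (5.99 and 6.45 CPM), a log2 fold change of 0.89 (SE 0.25, adjusted p = 0.986, edgeR quasi-likelihood test). Both Anp32b-KO libraries were above both WT libraries, and the log2 fold change ran from 0.80 to 0.97 with 1 library left out. The unadjusted p was 0.00838 in all 4 libraries and 0.0831 without Anp32b-KO replicate 2 (edgeR quasi-likelihood test). Tspan15 had 11 and 14 counts in Anp32b-KO, against 6 and 3 in WT (log2 fold change 1.42, SE 0.70). Clec1b went the other way, with 8 and 2 counts in Anp32b-KO, against 16 and 11 in WT (log2 fold change -1.43, SE 0.81). For Clec1b the value was -0.68 without replicate 2 of Anp32b-KO and -2.83 without replicate 1. In KU812 cells all 3 genes were higher in shANP32B by the choice of genes, so only their mouse values are independent of it.

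The letters upstream of Lsr and Clec1b are shown here as the 250 bases before the start, on the gene's own strand. CpG pairs are in capitals (RefSeq, GRCm38.p6). Of the tested matched genes with a RefSeq start at the gene's edge, they had the smallest unadjusted p in each direction. Neither was near the threshold (adjusted p = 0.986 for both, edgeR quasi-likelihood test). Clec1b passed the filter on low counts only through its WT counts. The Lsr stretch lies at chr7:30973470-30973719 on the minus strand and that of Clec1b at chr6:129397047-129397296 on the plus strand.
Lsr: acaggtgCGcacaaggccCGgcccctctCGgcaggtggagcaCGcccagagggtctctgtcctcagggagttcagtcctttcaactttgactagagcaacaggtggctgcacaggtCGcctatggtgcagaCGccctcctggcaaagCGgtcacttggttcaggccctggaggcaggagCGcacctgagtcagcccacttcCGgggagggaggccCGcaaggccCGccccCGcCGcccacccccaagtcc
Clec1b: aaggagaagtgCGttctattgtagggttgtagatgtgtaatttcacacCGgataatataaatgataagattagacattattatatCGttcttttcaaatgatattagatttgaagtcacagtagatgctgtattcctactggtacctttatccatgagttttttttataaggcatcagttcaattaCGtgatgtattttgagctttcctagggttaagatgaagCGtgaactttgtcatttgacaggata

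Lsr has 13 CpG pairs in 66.8% GC, which is 0.468 of the number expected from its base composition. Clec1b has 5 in 33.2% GC, which is 0.775 of it. Such a window was found for 18 of the 35 symbols, and 6 of the 18 belong to genes not listed in LSK cells. The ratio of observed to expected CpG reached 0.6 in 11 of the 18 (61.1%), against 68.9% of the 8412 symbols listed in both species and 34.2% of all 27018 mouse windows. The share thus lay below the first set and above the second. Motifs were searched in these windows on both strands. The CCAAT box (CCAAT) was in 10 of the 18 (55.6%), against 36.0% of the shared symbols and 34.5% of all windows. The GC box (GGGCGG) was in 7 (38.9%), against 60.5% of the shared symbols and 32.7% of all windows, so its direction too depends on the set it is read against. The E-box (CACGTG) was in 0, against 8.58% of the shared symbols and 5.98% of all windows. The core of the cyclic AMP response element (TGACGT) was in 3 (16.7%), against 10.3% of the shared symbols and 6.46% of all windows. The AP-1 motif (TGANTCA) was in 2 (11.1%), against 4.01% of the shared symbols and 6.85% of all windows. The TATA box (TATAAA) was in 3 (16.7%), against 5.97% of the shared symbols and 13% of all windows, and the GATA motif (AGATAA) in 2 (11.1%), against 5.75% of the shared symbols and 10.2% of all windows. With 18 windows each gene moves a share by several percentage points, and a match is a description of letters in mouse, not a site.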

How the data were processed

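RNA was extracted with Trizol and Illumina libraries were sequenced, per the labels' protocols. Tools listed in the submitters' processing notes are DESeq, Cufflinks, TopHat and HISAT2, with the builds GRCh38 and GRCm38, without roles or versions. For the counter, its strand setting and the annotation, the sources used here give no name. Reads of a gene and of an overlapping or antisense neighbour may therefore be mixed. The authors deposited whole-number counts per gene symbol, 1 table per library, with no normalization, as the headers and the whole-number values show.

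CPM here is the count over the library total. KU812 and LSK libraries were fitted separately in R 4.3.3 with edgeR 4.0.16 (filterByExpr, TMM, quasi-likelihood test, Benjamini-Hochberg over all genes tested, threshold 0.05). The SE is the unmoderated coefficient divided by the square root of F. DESeq2 1.42.0 was an alternative. The fit was also run on simulated counts with known changes, drawn with dispersions estimated from these libraries. Changes were not placed in genes of low mean count, and no result here rests on that run. Mouse genes were matched by symbol in upper case. Mouse gene names and windows came from GENCODE M21 and RefSeq; no human annotation was used here, so human positions and neighbours were not analysed here.

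The genes, lists, roles and families were chosen with earlier results of these data known. Genes named were the 20 with the highest shANP32B mean, up to 4 per list or class, the 3 nearest each side of each limit, the 10 highest and the 5 with the smallest p in LSK cells, and ANP32B; other names, those of relatives and source genes included, were chosen after their values were seen. The replicate numbers pair no libraries by the labels. Floors cover counting error only.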

Additional observations from a re-analysis of the deposited data

How the results depend on the processing

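The number of switched-on genes follows its limits. It was 7 with a control limit of 0.5 CPM, 5 with a knockdown limit of 4 CPM, 202 with a knockdown limit of 1 CPM and 31 with TMM-scaled totals, and it ran from 59 to 78 when 1 KU812 library was left out, since fewer libraries then have to meet a limit. Genes called in KU812 cells numbered 2741, with 4164 in the fit with a replicate block and 1413 to 4047 with 1 library left out (lowest without shANP32B replicate 2, highest without shNC replicate 2).

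In LSK cells 15 genes were called with DESeq2, 15 with the replicate block and 0 to 830 with 1 library left out (830 without WT replicate 2, 36 without WT replicate 1), but none of the matched genes under any of these alternatives. Same-numbered libraries deviated together only weakly (correlation 0.116 in KU812 and -0.069 in LSK cells). The median log2 fold change of the tested matched genes, 0.057, was 0.11 by library totals and 0.056 to 0.24 with 1 library left out. At 5 CPM in place of 1 CPM, 7 matched genes were past the level in both WT libraries. Of 108 values for 12 named mouse genes 8 changed sign, all with 1 library left out, where Ccr2 ran from -0.12 to 0.27, Ppic from -0.10 to 0.23, Nek6 from -0.22 to 0.36, Khdrbs3 from -0.20 to 0.38 and Zc3h12b from -0.29 to 0.093. With 10.5 to 15.7 counts per CPM, depth limits every LSK value below 1 CPM.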
